A study of Arabidopsis thaliana with 8 samples.

Results

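The genes described here are the 112 nuclear protein-coding genes of Arabidopsis thaliana whose symbol in the RefSeq TAIR10.1 annotation is EMB, in capitals, followed by digits, out of 27444 nuclear protein-coding genes. Membership rested on the symbol alone. Within the list, the genes picked out for H3K27me3, or for any other target, were chosen by the bases covered in these same libraries, so those values are a description and carry no test. A further 48 genes with the same symbol in lower case (emb) were kept apart and are given as a companion set. EMB genes ("embryo defective") are named for mutants whose seeds stop at the embryo stage.

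The measurements were chromatin immunoprecipitation and sequencing (ChIP-seq) with 1 library for each of 6 targets: histone H3, its modified forms H3K4me1, H3K4me3, H3K27ac and H3K27me3, and the variant histone H2A.Z. All libraries came from nuclei of non-hair cells of the root epidermis. The plants were Col-0 and carried 2 transgenes: a biotin ligase, BirA, under the broadly active ACT2 promoter, and a nuclear targeting fusion (NTF) under the GLABRA2 promoter. NTF is biotinylated where both are made, so the nuclei taken are those in which the GLABRA2 promoter is or was active (the INTACT method). Roots were harvested 10 days after germination, from a 1.25 cm segment of the fully differentiated zone. Another 2 samples, of 8 in all, held input chromatin that was not analysed here.

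The deposited values are called regions: a chromosome, a start and an end, with no height, read count or score. Sequencing depth is therefore unknown, and no difference has a replicate check. A called region does not tell how many of the nuclei carried the mark. A gene was called marked by a target when at least 200 bp of its annotated length lay under that target's regions. Intervals are exact 95% binomial intervals (Clopper-Pearson) and cover counting error only. Of 8 regulators of non-hair or hair cell fate, 5 were marked by H3K27ac, against 56.6% of all protein-coding genes. H3K27me3 marked 4 of the 8, against 41.9%, and on MYB23 and GL3 it was 241 bp, 1 region of the smallest size. With 8 genes these counts do not show from which cells the nuclei came. GL2, whose promoter drives the tag, had 378 bp of H3K4me3, 412 bp of H3K27ac and 1311 bp of H3K27me3.

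H3K4me3 and H3K27ac are usually found near the starts of transcribed genes, H3K4me1 in plants over the bodies of transcribed genes, and H3K27me3, laid down by Polycomb complexes, over genes that are silent in a given cell type. H2A.Z often sits at the first nucleosomes of a gene. Many EMB genes encode proteins that plastids, mitochondria, ribosomes, splicing or the cell cycle cannot do without, and such proteins are needed in most living cells, not in embryos alone.

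EMB genes were more often marked than protein-coding genes at large for 5 of the 6 targets, and less often for H3K27me3. H3K4me1 marked 91 of the 112 EMB genes (81.2%, interval 72.8 to 88.0%), against 52.1% of all protein-coding genes. H3K27ac marked 88 (78.6%, interval 69.8 to 85.8%), against 56.6%. For these 2 marks, as for H3K4me3 and H3 given next, the interval of the EMB genes lay wholly above the share of all genes. H3K4me3 marked 45 EMB genes (40.2%, interval 31.0 to 49.9%), against 25.7% of all protein-coding genes. Histone H3 regions marked 69 (61.6%, interval 51.9 to 70.6%), against 42.6%. H2A.Z marked 52 (46.4%, interval 37.0 to 56.1%), against 38.2% of all genes, a share inside the interval. H3K27me3 marked 28 EMB genes (25.0%, interval 17.3 to 34.1%), against 41.9%, which lies above the interval.

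**Figure D1:**
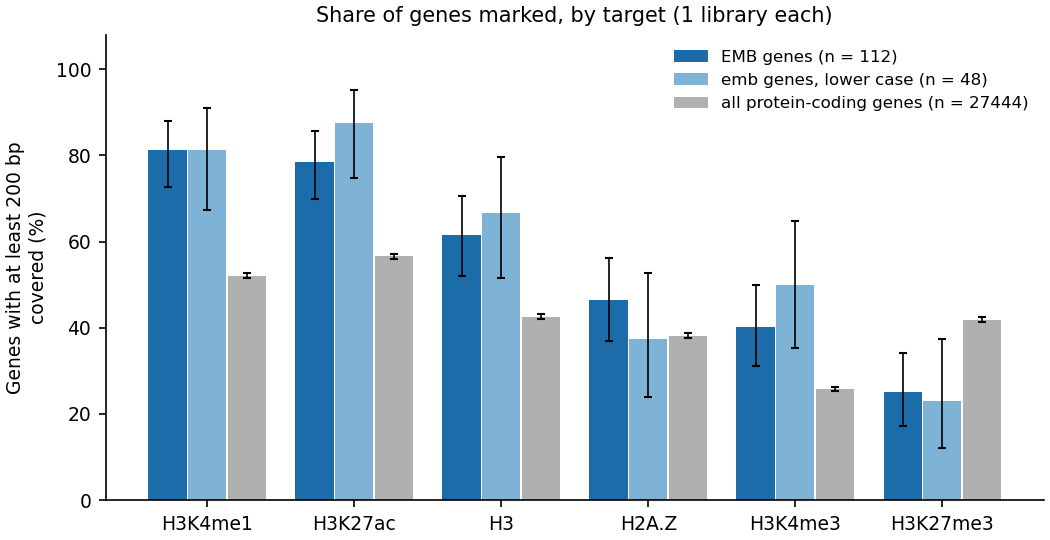
Percent of genes with at least 200 bp covered by the called regions of each target, for the 112 EMB genes, the 48 emb genes in lower case and all 27444 protein-coding genes; error bars are exact 95% binomial intervals (counting error only). EMB genes stand above all genes for H3K4me1 (81.2 against 52.1%) and H3K27ac (78.6 against 56.6%), and below them for H3K27me3 (25.0 against 41.9%).

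The emb genes in lower case gave shares close to these for H3K4me1, at 81.2%, and H3K27me3, at 22.9%. Their shares were 87.5% for H3K27ac, 50.0% for H3K4me3, 37.5% for H2A.Z and 66.7% for H3. Other gene sets named for mutant phenotypes did not all have this profile. EDA genes (embryo sac development arrest, 27 genes) had H3K27me3 on 70.4% and H3K27ac on 44.4%. MEE genes (maternal effect embryo arrest, 44 genes) had H3K27me3 on 45.5% and H3K27ac on 52.3%, both near the shares of all protein-coding genes. PDE genes (pigment defective embryo, 14 genes) had H3K27ac on 92.9% and H3K27me3 on 57.1%. All 6 TTN genes (titan) had H3K27ac, and 16.7% had H3K27me3. No difference between these sets was tested.

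Bases covered varied widely among members. The median EMB gene had 728.5 bp under H3K4me1 regions, against 254.0 bp for all protein-coding genes, and 454.0 bp under H3K27ac, against 282.0 bp. For H3K4me3 the median was 189.0 bp, which is 1 region of the smallest size in that library, against 0 bp for all genes. The H2A.Z median was 183.0 bp in both sets, again 1 region of the smallest size. H3 had a median of 211.0 bp in EMB genes, against 0 bp, and H3K27me3 a median of 0 bp in both. Pooled over all bases, H3K4me1 covered 29.5% of all EMB gene bases, against 18.6% for all protein-coding genes. H3K27ac covered 12.98%, against 14.5%, and H3K4me3 5.37%, against 5.93%. H3K27me3 covered 2.98% of EMB gene bases, against 10.4%. Gene by gene, the median covered share was 16.6% for H3K27ac in EMB genes, against 11.9%, and 4.09% for H3K4me3, against 0%. For these 2 marks the pooled share, to which long genes add most, was thus lower in EMB genes and the median share per gene was higher. For H2A.Z both shares were lower in EMB genes: 5.98% pooled, against 9.4%, and a median of 4.89% per gene, against 5.92%.

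**Figure D2:**
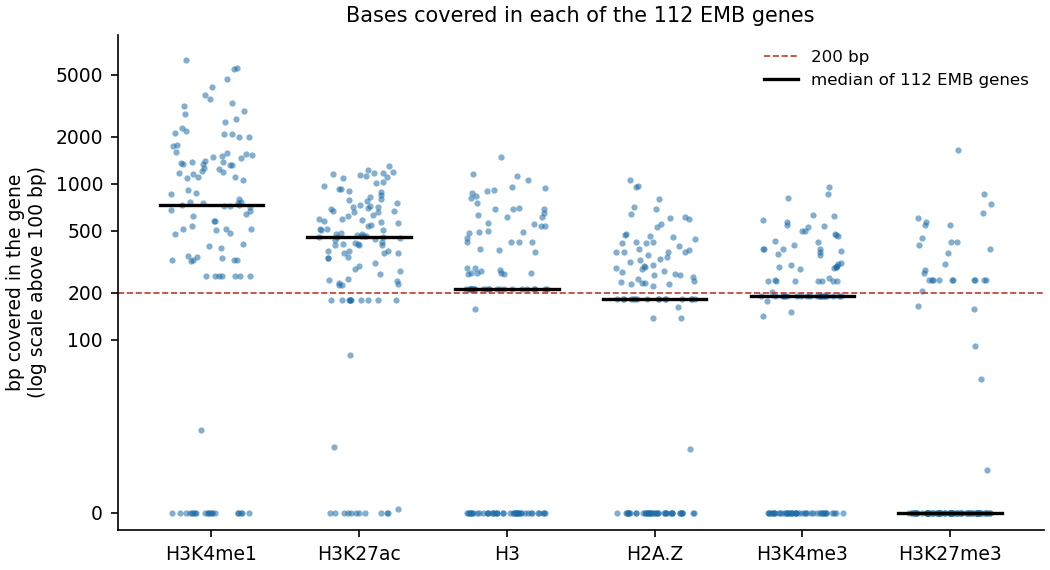
Bases of each of the 112 EMB genes under called regions of each target, 1 point a gene; the vertical axis is linear to 100 bp and logarithmic above, black bars are medians and the dashed line is the 200 bp limit. Medians are 728.5 bp for H3K4me1, 454.0 bp for H3K27ac and 0 bp for H3K27me3. Rows of points at equal height above 0 bp are mostly genes with 1 or more regions, all of the smallest size.

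The members with most H3K4me1 were also long genes. EMB3142, described as a nuclear pore complex protein and the longest member at 14915 bp, had 6204 bp of H3K4me1, 627 bp of H3K4me3 and no H3K27ac. EMB3012 had 5519 bp, EMB2771, a ubiquitin ligase subunit, 5429 bp, EMB2773, a PHD finger protein, 4672 bp and EMB2016 4174 bp; all 5 genes were at least 10152 bp long. H3K4me3 reached furthest in EMB1006, a pentatricopeptide repeat (PPR) protein, with 945 bp, followed by EMB2753, a tetratricopeptide repeat (TPR) protein, with 858 bp and the splicing factor-like EMB2770 with 813 bp. EMB1006 also had 1149 bp of H3K27ac, 1107 bp of H3K4me1 and 799 bp of H2A.Z, and no H3K27me3. H3K27ac was longest on EMB1241, a GrpE co-chaperone, with 1298 bp. Next came EMB2758, which RefSeq places in a TPR-like superfamily, with 1214 bp. H2A.Z was longest on EMB2795, a condensin subunit, with 1056 bp, where H3K27ac covered 179 bp and H3K4me3 none. EMB2813, the large subunit of DNA primase, had 962 bp of H2A.Z and neither H3K27ac nor H3K4me3. Both thus had much H2A.Z and under 200 bp of H3K27ac and H3K4me3. Regions of H3 itself were longest on EMB2730, a ribonuclease of the II/R family, with 1475 bp.

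EMB genes were long, and the share of all genes marked by H3K4me1, H3K27ac, H3K4me3 and H3 was higher in each longer class, while that of H3K27me3 was nearly flat above 1000 bp. EMB genes had a median annotated length of 2989 bp, against 2078 bp for all protein-coding genes, and 34.8% of them, against 11.8%, reached 4000 bp. Within each of 5 length classes H3K27me3 was less frequent on EMB genes, by 4.03 to 28.9 percentage points. In the class from 2000 to under 3000 bp, H3K27me3 marked 5 of 32 EMB genes (15.6%), against 44.6% of all genes of that class, and at 4000 bp or more it marked 10 of 39 (25.6%), against 46.2%. H3K27ac was more frequent on EMB genes in all 5 classes, by 0.452 to 42.4 points. Its largest differences were in short genes. Under 1000 bp, 3 of 5 EMB genes were marked (interval 14.7 to 94.7%), against 17.6% of all genes in that class. From 1000 to under 2000 bp, 16 of 20 EMB genes were marked (interval 56.3 to 94.3%), against 50.2%. Only in this second class did the EMB interval lie wholly above the share of all genes. From 3000 to under 4000 bp, 12 of 16 EMB genes were marked, against 74.6%, so little of the excess in H3K27ac remained among genes of that length. H3K4me1 was more frequent on EMB genes in 4 classes, by 6.97 to 20.8 points, where the difference over all lengths was 29.1 points. It marked none of the 5 EMB genes under 1000 bp, against 8.73% of all genes in that class. For H3 the difference over all lengths was 19.0 points. In the 4 classes from 1000 bp up it was 8.49, 0.969, 19.9 and 5.50 points, and under 1000 bp it was -12.1 points. For H3K4me3 the difference was 14.3 points from 2000 to under 3000 bp and -6.77 points from 3000 to under 4000 bp. For H2A.Z it was -5.23 points from 2000 to under 3000 bp.

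**Figure D3:**
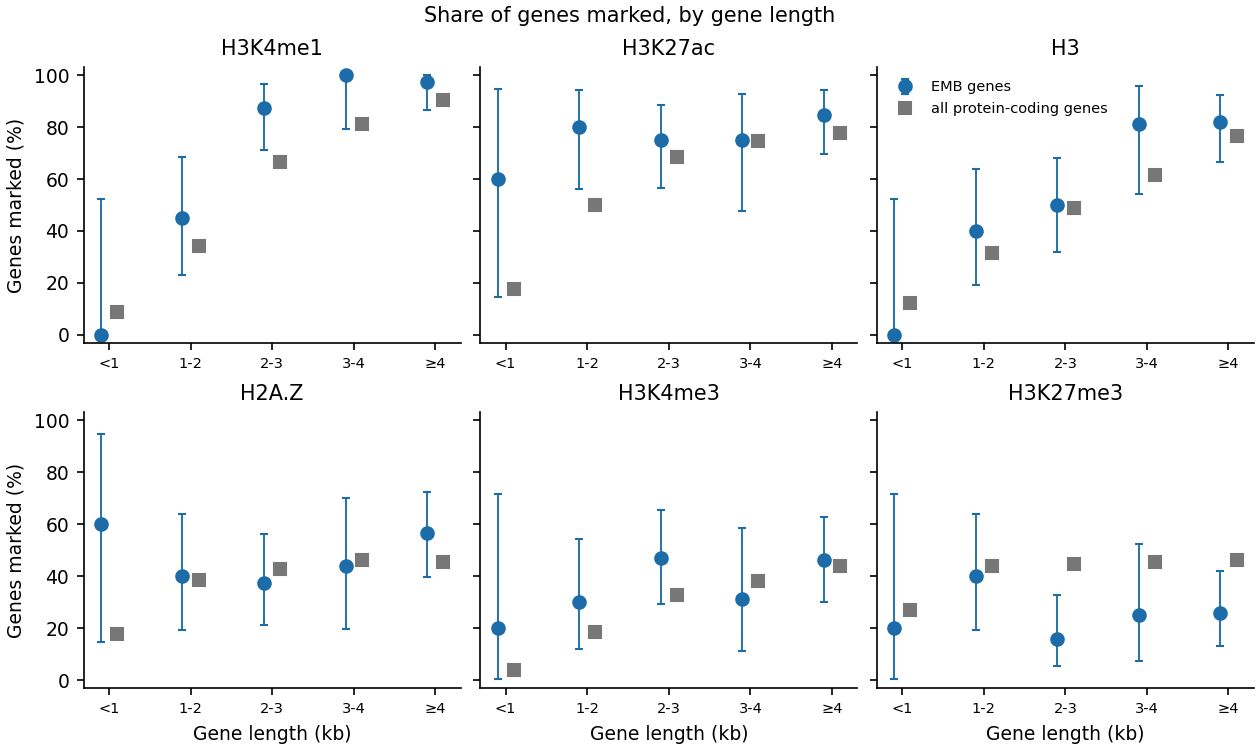
Percent of genes marked by each target in 5 classes of annotated gene length (upper limits excluded), for EMB genes (blue circles, with exact 95% binomial intervals) and all protein-coding genes (grey squares). The EMB share of H3K27me3 lies under that of all genes in every class, and for H3K27ac the shares differ by 29.8 points from 1 to 2 kb but by 0.452 points from 3 to 4 kb.

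H3K4me1 was also less frequent on genes with 1 exon. Of 16 EMB genes with 1 exon, 5 (31.2%) were marked by H3K4me1, and of 96 with several exons, 86 (89.6%) were. Among all protein-coding genes the shares were 22.6% with 1 exon and 59.4% with several. Among EMB genes from 2000 to under 3000 bp alone, 4 of 6 with 1 exon and 24 of 26 with several were marked, against 58.3% and 67.5% of all genes of that length.

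Where present, H3K4me3 and H3K27ac lay mostly in the first part of EMB genes and H3K4me1 over the body. On a scale from 0 at the annotated start to 100 at the end, the 90 H3K4me3 regions with their midpoint in an EMB gene had a median position of 12.6 (interval 10.2 to 20.5), against 20.8 for all protein-coding genes. The 175 H3K27ac regions had a median of 19.2 (interval 17.02 to 22.17), against 26.4. The 290 H3K4me1 regions had a median of 51.5 (interval 48.1 to 56.7), against 53.3, close to the middle of the gene in both sets. In base pairs the medians were 481.0 bp from the start for H3K4me3, against 532.5 bp, and 547.5 bp for H3K27ac, against 604.5 bp. What part of the scaled shift in these 2 marks goes with gene length was not tested. Within length classes H3K4me3 lay at 300.0 bp in EMB genes from 1000 to under 2000 bp (10 regions), against 493.5 bp. In those from 2000 to under 3000 bp it lay at 358.2 bp (24 regions), against 535.5 bp. From 3000 to under 4000 bp the order was the other way, with 605.5 bp in EMB genes (13 regions), against 564.5 bp. At 4000 bp or more the median was 494.5 bp in EMB genes (41 regions), against 588.5 bp. Regions within a gene are not independent, so the intervals of the positions are approximate.

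Examples near these medians were taken from genes with at least 1 base under each of the 3 marks. EMB2107, a proteasome regulatory subunit of 3743 bp, had 189 bp of H3K4me3 at a mean position of 12.5, 781 bp of H3K27ac and 797 bp of H3K4me1. EMB2820, a cytidine deaminase family protein, had 1030 bp of H3K27ac at 20.1, 1168 bp of H3K4me1 and 189 bp of H3K4me3. EMB2804, a tubulin folding cofactor, had 1321 bp of H3K4me1 at 51.1, 459 bp of H3K4me3 and 1105 bp of H3K27ac. At least 1 base under each of the 3 marks was found in 52 members (46.4%), against 26.3% of all protein-coding genes.

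Counted gene by gene, the mean position of H3K27ac was nearer the start than that of H3K4me1 in 76 of the 81 EMB genes with both (93.8%), against 85.5% of all such genes. The 5 exceptions were EMB1586, EMB269, EMB2758, EMB2788 and EMB3144. The median gap between H3K27ac and H3K4me1 was 1165 bp in EMB genes, against 750.5 bp. EMB genes are longer, and H3K4me1 lies further in where genes are longer. Its median in all genes was 902.0 bp from 1000 to under 2000 bp and 2941.5 bp at 4000 bp or more. How much of the wider gap goes with length was not tested. H3K4me3 was nearer the start than H3K4me1 in 55 of 60 EMB genes (91.7%), against 91.4%. Between H3K4me3 and H3K27ac there was no such order: H3K4me3 was nearer in 35 of 61 EMB genes (57.4%), against 53.3%. These 2 marks also overlapped, with 56.3% of H3K4me3 bases in EMB genes under H3K27ac, against 58.9% in all genes. Of H3K4me1 bases, 8.57% lay under H3K27ac, against 14.6%.

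Around the start, the 107 EMB genes of at least 1000 bp were covered by H3K27ac most densely at 325 bp into the gene, where 59.6% of bases lay under a region, against 41.1% at the same place in all protein-coding genes of that length. H3K4me3 peaked at 225 bp with 29.9%, against 19.6% at 425 bp. H2A.Z peaked at 175 bp with 25.1%, against 20.8% at 375 bp. For both H3K4me3 and H2A.Z the highest bin of the EMB genes therefore lay closer to the start. H3K4me1 was nearly absent there, at 1.65% of the first 500 bp of EMB genes, against 4.09%. It then climbed to 48.3% at 1925 bp, against a plateau that reached 24.9% in all genes. That bin rests on the 88 EMB genes long enough to reach it, and the sets differ in length. With each gene cut into 20 equal parts, the highest part had 42.3% in EMB genes, against 24.6%. H3K27me3 peaked at 225 bp with 12.1%, against 18.0% at 525 bp.

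**Figure D4:**
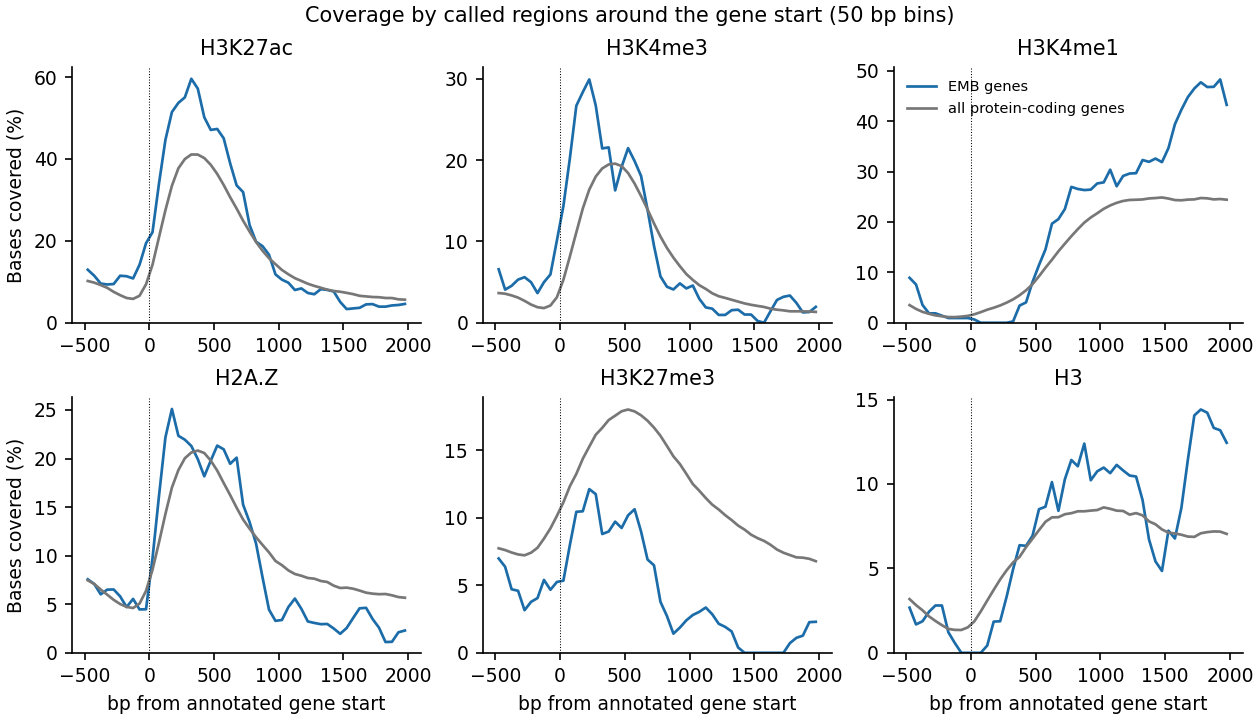
Percent of bases under called regions in 50 bp bins from 500 bp before to 2000 bp after the annotated gene start, for EMB genes of at least 1000 bp (blue, 107 genes, fewer in the far bins) and all protein-coding genes of that length (grey, 23067 genes); vertical scales differ between panels. H3K27ac reaches 59.6% in EMB genes, against 41.1%, H3K4me3 peaks at 225 bp, against 425 bp, and H3K27me3 stays lower in EMB genes inside the gene.

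The 500 bp before the start also held more of both marks: H3K27ac covered 12.01% there in EMB genes, against 7.99%, and H3K4me3 5.58%, against 2.76%. That excess went with neighbours read the other way. An oppositely oriented gene started within 1000 bp upstream of 26 EMB genes (23.2%), against 18.1% of all genes. For the 23 of these of at least 1000 bp, H3K27ac covered 31.1% of the 500 bp before the start, against 17.9%, and H3K4me3 18.2%, against 8.12%. For the 84 without such a neighbour the values were 6.77% for H3K27ac, against 5.76%, and 2.12% for H3K4me3, against 1.55%. Without a divergent neighbour, EMB starts were thus close to all starts on the upstream side, while the first 500 bp inside them kept a higher H3K27ac coverage of 45.9%, against 32.1%.

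Most EMB genes carried marks in combination. H3K27ac and H3K4me1 together marked 73 (65.2%), against 38.5% of all protein-coding genes, and H3K4me3, H3K27ac and H3K4me1 all marked 31 (27.7%), against 16.8%. H3K27ac and H3K4me1 with under 200 bp of H3K4me3 was found on 42 (37.5%), against 21.7%. In these counts, genes without H3K4me3 include those with a lone region of the smallest size, 189 bp, under the limit. At least 1 base of H3K4me3 was found on 69 EMB genes (61.6%), against 40.1% of all protein-coding genes. H3K27ac was about as frequent on EMB genes with H3K4me3, 36 of 45, as on those without it, 52 of 67 (77.6%). Among all protein-coding genes it marked 89.1% of those with H3K4me3 and 45.3% of those without it. H3K4me3 without H3K27ac was found on 9 EMB genes (8.04%), against 2.82%: EMB269, EMB2759, EMB2765, EMB2769, EMB2770, EMB2785, EMB3003, EMB3123 and EMB3142. EMB269, EMB2759 and EMB2769 had 179 bp of H3K27ac each, 1 region just under the limit of 200 bp. EMB2765, EMB2770, EMB2785, EMB3003 and EMB3142 had none, with 430, 813, 378, 294 and 627 bp of H3K4me3 in that order.

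At the 200 bp limit, 5 EMB genes (4.46%) were marked by none of H3K4me3, H3K27ac and H3K4me1, against 28.9% of all protein-coding genes. All 5 had some H3K27ac under the limit: 179 bp each on EMB2024, EMB2743 and EMB3137, 91 bp on EMB3119 and 2 bp on EMB3120. EMB2743, an F-box associated protein and the shortest member at 420 bp, was the single member with under 200 bp of all 6 targets (0.893%, against 12.2%), with 179 bp of H3K27ac, 158 bp of H3 and 137 bp of H2A.Z. No member was free of regions. At the other end, all 6 targets marked 8 EMB genes (7.14%), against 1.97%: EMB1135, EMB1241, EMB1467, EMB1691, EMB1923, EMB2219, EMB2730 and EMB3006.

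By the role that the RefSeq product text gives, the largest named class was that of PPR, TPR and TPR-like proteins. These are helix repeat proteins, of which the PPR ones bind organelle RNA. Of these 22 genes, H3K27ac and H3K4me1 marked 19 each (86.4%), where 78.6% and 81.2% of the 112 EMB genes had them. H2A.Z marked 13 (59.1%), beside 46.4% of the whole list, and H3K4me3 9 (40.9%), beside 40.2%. H3K27me3 marked 3 (13.6%), beside 25.0%. In each case the share of the whole list lay inside the 95% interval of the 22 genes. Of 13 genes for RNA helicases and RNA processing, H3K27ac and H3K4me1 marked 11 each (84.6%), H3K4me3 6 (46.2%) and H3K27me3 3 (23.1%). All of these were near the shares of the whole list. The 9 ATPases and GTPases all had H3K4me1, 7 had H3K27ac and 2 had H3K4me3. Their median length was 3373 bp. From 3000 to under 4000 bp, all 16 EMB genes and 81.35% of all protein-coding genes had H3K4me1. The 4 tRNA synthetases, which charge tRNAs with amino acids, all had H3K27ac and H3K4me1, each with an interval of 39.8 to 100%. Of 11 enzymes of metabolism, 5 were marked by H3K27ac (45.5%) and 1 by H2A.Z (9.09%), below the shares of the whole list. These low counts rest on the 200 bp limit, since 9 of the 11 had at least 1 base under H3K27ac and 7 under H2A.Z. Another 30 genes had a product text outside the named classes. Of these 30, H3K27me3 marked 12 (40.0%, interval 22.7 to 59.4%), beside 25.0% of the whole list and 41.9% of all protein-coding genes. H3K27ac marked 23 of them (76.7%) and H3K4me1 25 (83.3%). The classes are small and differ in length, with median gene lengths of 1764 bp for ribosomal proteins and 4203 bp for RNA processing, so these counts are a description.

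H3K27me3 marked 0 of 7 ribosomal proteins (interval 0 to 41.0%), against 25.0% of EMB genes and 41.9% of all protein-coding genes; with 7 genes the interval holds the share of EMB genes. EMB3136 had 96 bp of it, and the others had none. H3K27ac covered 542 bp of EMB3126, 467 bp of EMB3010, 458 bp of EMB3136, 283 bp of EMB3105, 240 bp of EMB2296, 179 bp of EMB3137 and 0 bp of EMB3113. EMB3113, a protein of the S5 family, was thus the single ribosomal member without H3K27ac regions; it had 575 bp of H3K4me1, 189 bp of H3K4me3 and 284 bp of H2A.Z.

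Promoter sequences were searched because members share marks at their starts. In plants, site II elements and teloboxes are short promoter sequences known from genes of ribosomal proteins and of dividing cells. Windows ran from 250 bp before to 50 bp after the annotated start, and both strands were read. Site II, written TGGGCC or TGGGCT, was found in 43 of 112 EMB windows (38.4%, interval 29.4 to 48.1%), against 21.7% of the 27443 windows of all protein-coding genes that could be read. The telobox, AAACCCT, was found in 16 (14.3%), against 10.0%, GAGAGA in 29.5%, against 29.2%, and TATAAA in 48.2%, against 52.1%. Site II matched in 39.6% of the windows of emb genes in lower case. It was found in 14 of 28 EMB genes with H3K27me3 (50.0%) and 29 of 84 without it (34.5%); for all protein-coding genes the order was the other way, at 19.7% with H3K27me3 and 23.2% without it. Among EMB genes it was found in 18 of 45 with H3K4me3 (40.0%) and 25 of 67 without it (37.3%). A match is a run of letters, not a measured site.

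The 250 bases before the start are shown for 2 ribosomal members whose windows hold both elements, with matches to site II and the telobox in capitals. EMB3010 (ribosomal protein S6e) is read from the minus strand of chr5:3260255-3260504, and EMB3113 (S5 family) from the minus strand of chr2:14302497-14302746, 5′ to 3′, in TAIR10.1, whose nuclear coordinates are those of TAIR10. In EMB3010 a match on each strand overlaps in 1 run of 8 letters, and its telobox lies past the start, outside the stretch shown.
EMB3010: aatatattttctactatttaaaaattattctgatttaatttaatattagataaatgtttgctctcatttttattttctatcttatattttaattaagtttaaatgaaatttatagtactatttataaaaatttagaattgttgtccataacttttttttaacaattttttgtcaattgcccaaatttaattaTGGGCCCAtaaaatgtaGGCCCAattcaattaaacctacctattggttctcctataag
EMB3113: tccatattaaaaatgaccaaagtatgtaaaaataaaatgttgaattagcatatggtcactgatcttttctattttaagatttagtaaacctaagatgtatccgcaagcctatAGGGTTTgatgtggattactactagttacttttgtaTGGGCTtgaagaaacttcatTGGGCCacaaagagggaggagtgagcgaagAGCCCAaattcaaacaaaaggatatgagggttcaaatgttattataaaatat

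H3K27me3 on EMB genes was short as well as rare. Of the 28 marked genes, 10 (35.7%) rested on a single region of the smallest size, 241 bp, against 28.7% of all genes marked by H3K27me3. The median among marked genes was 332.5 bp in EMB genes, against 427.0 bp in all. At least 500 bp was found in 8 EMB genes (7.14%), against 17.1%, and at least 1000 bp in 1 (0.893%), against 6.05%. The marked gene nearest the limit was EMB3119, a ribose-phosphate isomerase, with 205 bp. Just under the limit lay EMB269 with 165 bp and EMB25 with 156 bp, and 79 members had none. Of the 56 nearest protein-coding neighbours of marked members, 18 (32.1%) were marked by H3K27me3, as were 64 of the 168 neighbours of unmarked members (38.1%), so the marked members did not lie next to marked genes more often.

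H3K27me3 and H3K27ac met on the same EMB genes: 24 of the 28 with H3K27me3 also had H3K27ac (85.7%), and 64 of the 84 without it did (76.2%). As a share of the whole set, both marks together were about as frequent as elsewhere, at 21.4% of EMB genes, against 22.3% of all protein-coding genes. For H3K27me3 together with H3K4me3 the shares were 12.5%, against 11.25%. Among all protein-coding genes H3K27ac was found on 53.2% of those with H3K27me3 and 59.0% of those without it. H3K4me3 marked 14 of the 28 (50.0%) and 31 of the 84 (36.9%), while among all protein-coding genes it marked 26.9% of those with H3K27me3 and 24.9% of those without. H3K27me3 with under 200 bp of each of H3K4me3, H3K27ac and H3K4me1 was found on 2 EMB genes, EMB2024 and EMB3119 (1.79%), against 13.1%. EMB2024 still had 179 bp and EMB3119 91 bp of H3K27ac. Regions from separate libraries on 1 gene do not show that both marks sat on the same nucleosome or in the same nucleus.

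The 10 EMB genes selected on their H3K27me3 bases had from 422 to 1638 bp. EMB1290, which RefSeq describes as cysteine-rich receptor-like protein kinase 17, a membrane kinase with an extracellular cysteine-rich part, stood first with 1638 bp in 5 regions, 32.6% of its length. It lies at chr4:12162004-12167026 on the minus strand, in a row of related kinase genes that share sequence, where short reads can be hard to place. Its annotation overlaps that of its neighbour CRK16, and 520 bp of its H3K27me3 lay in the overlap and 1118 bp outside it. Its single H3K4me3 region also lay in that overlap, far from its start. CRK18, upstream, had no H3K27me3. EMB1290 also had 1180 bp of H3K27ac, the third most among members, of which 419 bp coincided with H3K27me3, along with 189 bp of H3K4me3 and 183 bp of H2A.Z, and it had no H3K4me1 and no H3 region. Among the 10 it shared the lack of H3K4me1 with EMB3135.

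EMB3111, of the TPR-like superfamily in RefSeq, had 862 bp of H3K27me3 in 2 regions, one of which began 145 bp before its start. It also had 886 bp of H3K27ac, with 513 bp under both marks. EMB175, a PPR protein, had 742 bp, and both of its neighbours carried more of the mark, 1137 bp upstream and 1125 bp downstream. Its second region ran 398 bp past its end. EMB2761, a threonyl-tRNA synthetase, had 646 bp in 3 regions, all of the smallest size, of which 164 bp lay where another annotated gene overlaps it. EMB3135, described as harpin-induced, had 1 region of 602 bp that held all 368 bp of its H3K27ac. EMB2770, the splicing factor-like protein, was the one of the 10 with H3K27me3 and H3K4me3 but no H3K27ac: 464 bp of its 565 bp of H3K27me3 lay under H3K4me3.

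The other 4 were EMB3006 with 546 bp, EMB2219 with 544 bp, EMB1691 with 448 bp and EMB1923 with 422 bp. EMB2453, of the TPR-like superfamily in RefSeq, also had 422 bp and came after EMB1923 by the order of its locus name. The upstream neighbour of EMB2453 had 1033 bp. EMB3006 and EMB1923 have no stated function. EMB2219 belongs to the mitochondrial transcription termination factor family, proteins of organelle gene expression. EMB1691, of the MT-A70 methyltransferase family of RNA-modifying enzymes, differed in placement: its single region began 3233 bp into a gene of 4580 bp, well past its H3K4me3 (541 bp) and H3K27ac (296 bp), and shared no base with them. On 8 of the 10 genes H3K27me3 and H3K27ac shared bases; EMB2770 and EMB1691 were the exceptions.

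**Figure D5:**
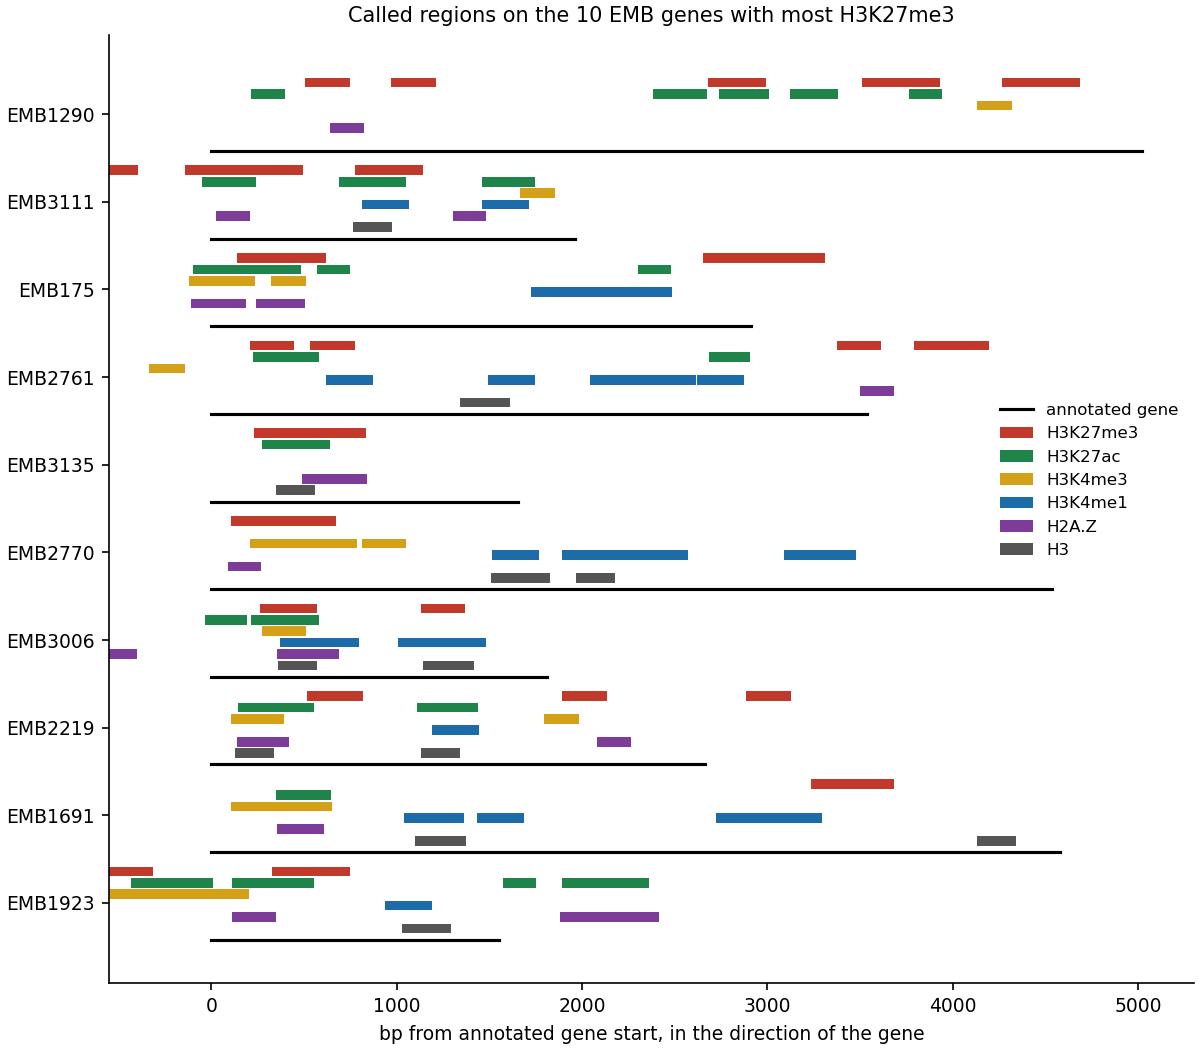
Called regions of the 6 targets on the 10 EMB genes with most H3K27me3, placed by distance in bp from the annotated start in the direction of each gene; coloured bars are regions, 1 row a target in the order of the legend, and black lines are the annotated genes. EMB1290 has 5 H3K27me3 regions spread over its length beside 1180 bp of H3K27ac and no H3K4me1, while in EMB1691 the single H3K27me3 region lies past the H3K4me3 and H3K27ac near the start.

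The 250 bases before the start of EMB1290, the member with most H3K27me3, and of EMB1691, where the mark lies away from the start, are shown with site II matches in capitals. They are read 5′ to 3′ from the minus strands of chr4:12167027-12167276 and chr4:6252315-6252564 in TAIR10.1. EMB1290 holds 1 match and EMB1691 holds 3.
EMB1290: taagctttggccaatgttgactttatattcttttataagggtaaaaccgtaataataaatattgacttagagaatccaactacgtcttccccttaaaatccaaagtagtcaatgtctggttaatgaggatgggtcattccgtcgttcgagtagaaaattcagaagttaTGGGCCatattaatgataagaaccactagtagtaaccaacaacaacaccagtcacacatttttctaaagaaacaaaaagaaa
EMB1691: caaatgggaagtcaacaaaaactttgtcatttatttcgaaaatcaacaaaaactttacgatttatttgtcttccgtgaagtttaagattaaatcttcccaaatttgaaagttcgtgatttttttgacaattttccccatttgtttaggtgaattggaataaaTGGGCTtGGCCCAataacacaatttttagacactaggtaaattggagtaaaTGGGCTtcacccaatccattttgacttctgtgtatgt

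EMB genes were spread over the genome. Chromosomes 1 to 5 held 23, 21, 17, 19 and 32 of them in that order, and 14 (12.5%) lay within 3 Mb of a centromere, against 11.6% of all protein-coding genes. No EMB gene lay next to another. For 44 of the 112 (39.3%), another annotated gene overlapped the member, so regions in the shared stretch could belong to either gene. The same share was not counted for all protein-coding genes, so it cannot be called high or low.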

How the data were processed

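ChIP-seq regions for 6 targets, 1 library each, were used as deposited. Per the submitters' processing notes, the authors worked with Bowtie2, SAMtools 0.1.19, deepTools 2.0 and HOMER on build TAIR10; how regions were called (settings, threshold, control) is not given in the sources used here. Base pairs of called region are the deposited unit, with no signal or count. The smallest region size was 179 bp for H3K27ac, 183 bp for H2A.Z, 189 bp for H3K4me3, 211 bp for H3, 241 bp for H3K27me3 and 254 bp for H3K4me1, and 39.2 to 63.4% of regions had it. A lone smallest region therefore marks a gene for H3, H3K27me3 and H3K4me1 and not for the other 3 targets, so shares compare between gene sets within a target, not between targets.

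Genes came from the RefSeq annotation of TAIR10.1, on chromosomes 1 to 5. Regions off these chromosomes were left out: 1 for H3K4me3, 2 for H3K27me3 and 4 for H3. Covered bases were counted per gene with Python 3.11.15, NumPy 2.4.6, pandas 2.3.3 and SciPy 1.17.1, and the counting was tested on simulated regions. Positions are region midpoints inside genes. With 1 library per target no test was run; values of EMB genes stand beside those of all 27444 protein-coding genes, which include them.

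Named genes were the 10 members with most H3K27me3, the 5 with most of each other target, those near the 200 bp limit, those with no region, the longest and shortest, and those nearest the median positions. Of these, the ones that show a pattern are given in the text. Members of the gene combinations and of the ribosomal class, and EMB2453, were named after their values were seen. The members, lists and promoter elements were chosen with earlier results of these data known. Roles follow words of the RefSeq product text. Promoter bases were read from the RefSeq TAIR10.1 genome. WER was matched through a synonym in the annotation.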

Additional observations from a re-analysis of the deposited data

How the results depend on the processing

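The share of EMB genes with H3K27me3 stayed below that of all protein-coding genes under every alternative tried. Shares depend on the rule for a marked gene. With at least 1 bp in place of 200 bp, H3K4me3 marked 61.6%, H3K27ac 90.2% and H2A.Z 64.3% of EMB genes. With at least 50% of the gene covered, H3K4me1 marked 4.46%, H3K27ac 3.57% and H3K4me3, H3K27me3, H2A.Z and H3 0.0%; the difference from all genes then turned to -0.485 points for H3K4me3, -0.954 for H3K27ac, -2.50 for H2A.Z and -0.415 for H3. Without regions of the smallest size, H3K4me1 marked 70.5%, H3K27me3 15.2% (all genes 25.97%) and H3 35.7%, and the median position of H3K4me3 was 9.83. With only regions of at least 500 bp, H3K4me1 marked 42.9%, H3K4me3 4.46% (all genes 4.14%), H3K27ac 23.2%, H3K27me3 3.57% (all genes 11.7%), H2A.Z 4.46% (all genes 4.46%) and H3 0.893%, the median position of H3K27ac was 14.9, and the difference for H3 was -0.0946 points. Within length classes the difference turned for H3K4me1 (-8.73) and H3 (-12.1) under 1000 bp, for H2A.Z from 2000 to under 3000 bp (-5.23) and from 3000 to under 4000 bp (-2.27), and for H3K4me3 from 3000 to under 4000 bp (-6.77). Of the alternatives for the shares and positions, 37 gave values inside the interval of the main value and 20 did not. Letter case, synonyms and leaving out the centromere flanks moved no share out of its interval, but the excess of H2A.Z over all genes, 8.24 points, was 5.56 with letter case ignored and 2.43 with synonyms. No paired analysis was possible because each target had 1 library. Depth is unknown, so absence of a region does not show absence of a mark.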
